A study of Rattus norvegicus with 16 samples.

Results

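The genes described here belong to solute carrier families that carry amino acids and related small molecules across the plasma membrane, measured in the livers of rats that took up hydrogen or not, on a fatty liver diet or on chow. A gene was a member when a probe set with a single platform symbol matched family 1, 3, 6, 7, 36, 38 or 43 of the Slc names. Of 67 such probe sets for 51 genes, 48 probe sets lay above 3.68 log2 on at least 4 arrays, and these stood for 41 genes among the 11435 genes kept in all. Each gene was read from its probe set of highest mean over the 16 arrays.

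The arrays came from male F344 rats, an inbred strain, entered at 4 weeks of age and reared for 3 weeks. The hydrogen CDAA group ate the CDAA diet, in which L-amino acids replace protein and choline is missing, drank water holding 0.7 mM dissolved hydrogen and breathed air with 2% hydrogen. The control CDAA group ate that diet with plain air and with water from which the hydrogen had been stirred out. The hydrogen normal-diet and control normal-diet groups had the same 2 kinds of water and air with basal rodent chow, and each of the 4 groups had 4 arrays. The water of all 4 groups contained 0.44 mM Na2SO4. A difference between the diets therefore covers the lack of choline, the free amino acids and every other way in which the purified diet departs from chow.

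Amino acids enter and leave hepatocytes through exchangers, sodium-driven pumps and simple uniporters that differ in the amino acids they accept. The light chains of family 7 reach the membrane only when joined to a heavy chain of family 3, so that 1 heavy chain serves many carriers. Liver takes up alanine, glutamine and the cationic amino acids from portal blood for gluconeogenesis, urea and protein synthesis. Several of these carriers are classed in cultured mammalian cells among the targets of ATF4, the transcription factor that a shortage of amino acids turns on through the eIF2 alpha kinase pathway.

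Of the 51 genes, 10 were not kept. Slc7a14 exceeded the line on 3 arrays with a highest value of 3.81, Slc1a6 on 2 with 3.88, and Slc38a5, Slc6a20b and Slc7a3 on 1 array each with 3.78, 3.69 and 3.70. The brain or epithelial carriers Slc6a14, Slc6a15, Slc6a5, Slc7a13 and Slc7a9 exceeded it on 0 arrays, with highest values between 2.86 and 3.27. Just inside the line were Slc36a2, above it on 9 arrays with a mean of 3.67, and Slc7a11, above it on 10 arrays with a mean of 3.77. All 51 genes matched a current rat gene through the Entrez identifier. Slc7a6os matched the pattern by its name alone: it is named for its place on the opposite strand to Slc7a6 and is no transporter. The rule also takes in carriers of monoamines and, in Slc36a1, Slc38a7 and Slc6a17, carriers known mainly from lysosomes or synaptic vesicles.

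The array values are log2 signals, with array medians between 4.33 and 4.37, and the median of all values was 4.35. Signals of different probe sets cannot be set against each other, so levels are compared within a gene only. The first principal component of the 22634 probe sets kept held 66.0% of their variance. Along it the arrays of control normal-diet rats had scores of -32.28, -35.09, -32.45 and, in replicate 4, -13.44, so that replicate 4 stood apart from its group. A change counted as called when the limma test, adjusted over all 22634 probe sets by Benjamini-Hochberg, gave p under 0.05. The labels number the samples of a group, and p-values measure the spread between these samples.

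The promoters of the 5 members whose called change exceeded 1 log2 unit are printed first, because these genes carry the largest diet changes and moved in both directions. Each runs from 250 bases before to 50 bases after a transcript start in RefSeq's GRCr8 rat assembly, 5′ to 3′ on the gene's strand. That start is the outermost one of the gene for Slc7a1, Slc3a2 and Slc38a2, and lies 72 bases into the gene for Slc43a1 and 162 bases into it for Slc6a6. Slc3a2 has a second window in the table, from a start 8394 bases further in, which is not printed and did not hold the motif. Capitals mark the letters TGATGNAA, searched on both strands as the core of the element that ATF4 binds with a C/EBP partner. Slc7a1, a carrier of arginine and lysine, lies on the plus strand at chr12:11664238-11664537. Slc3a2, the heavy chain shared by many light chains, lies on the minus strand at chr1:215048015-215048314. Slc38a2, a sodium-driven carrier of small neutral amino acids, lies on the minus strand at chr7:129742570-129742869. Slc6a6, the taurine transporter, lies on the plus strand at chr4:125752252-125752551. Slc43a1, a uniporter of large neutral amino acids, lies on the plus strand at chr3:90327072-90327371.
Slc7a1: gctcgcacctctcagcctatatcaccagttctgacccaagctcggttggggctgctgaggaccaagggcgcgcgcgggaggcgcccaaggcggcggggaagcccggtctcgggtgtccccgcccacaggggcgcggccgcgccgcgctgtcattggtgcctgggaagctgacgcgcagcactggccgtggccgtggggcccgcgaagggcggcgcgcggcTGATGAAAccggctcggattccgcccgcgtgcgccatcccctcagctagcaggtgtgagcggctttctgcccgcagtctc
Slc3a2: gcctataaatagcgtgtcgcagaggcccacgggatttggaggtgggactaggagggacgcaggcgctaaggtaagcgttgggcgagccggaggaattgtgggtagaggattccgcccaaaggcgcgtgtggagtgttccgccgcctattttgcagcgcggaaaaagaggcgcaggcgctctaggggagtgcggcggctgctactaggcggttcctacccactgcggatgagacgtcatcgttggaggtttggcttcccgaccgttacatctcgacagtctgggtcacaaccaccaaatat
Slc38a2: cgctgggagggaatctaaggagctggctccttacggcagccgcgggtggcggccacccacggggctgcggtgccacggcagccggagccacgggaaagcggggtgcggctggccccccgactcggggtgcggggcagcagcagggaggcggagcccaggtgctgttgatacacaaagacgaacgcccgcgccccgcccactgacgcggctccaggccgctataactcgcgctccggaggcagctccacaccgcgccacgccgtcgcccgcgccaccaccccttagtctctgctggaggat
Slc6a6: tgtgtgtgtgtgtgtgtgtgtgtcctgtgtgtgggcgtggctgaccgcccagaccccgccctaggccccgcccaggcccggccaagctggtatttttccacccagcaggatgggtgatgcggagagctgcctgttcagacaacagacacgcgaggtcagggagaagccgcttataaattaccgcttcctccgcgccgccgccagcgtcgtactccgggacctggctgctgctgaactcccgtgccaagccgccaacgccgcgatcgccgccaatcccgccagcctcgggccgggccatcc
Slc43a1: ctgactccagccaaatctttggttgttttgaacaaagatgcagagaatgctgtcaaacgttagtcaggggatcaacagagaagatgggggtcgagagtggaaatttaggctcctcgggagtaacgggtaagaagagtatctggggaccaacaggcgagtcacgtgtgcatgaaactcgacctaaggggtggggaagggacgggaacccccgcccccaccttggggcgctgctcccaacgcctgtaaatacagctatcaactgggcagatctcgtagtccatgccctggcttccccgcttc
Among these 5, Slc7a1 held the motif, as TGATGAAA on its own strand. G and C made up 72.0% of the Slc7a1 window, 59.3% of Slc3a2, 72.3% of Slc38a2, 66.3% of Slc6a6 and 54.7% of Slc43a1, against a median of 51.7% over all promoters of the table. A promoter was at hand for 39 of the 51 members, with 44 windows in all since a gene can have several, and 3 of the 39 genes held the motif in a window (7.69%), against 1141 of all 27457 genes of the table (4.16%). The other two were Slc38a1 and, on the opposite strand, Slc1a4, both with TGATGCAA. In the list of amino acid response genes described further on, 9 of 28 genes with a promoter held it (32.1%). A match is a run of letters, not a binding site, and a window without one leaves the rest of the gene unread.

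The diet moved many members in both directions, and the largest changes were lower taurine transporter and Slc43a1 signals and higher Slc3a2 and Slc7a1 signals, in hydrogen rats and in control rats. In hydrogen rats 11 members rose and 10 fell on the CDAA diet, 51.2% of the 41. Over all genes 49.5% were called in that comparison, 32.1% higher and 17.3% lower. In control rats 11 members rose and 7 fell, 43.9%, against 40.6% of all genes, 27.3% higher and 13.3% lower. The shares of members called were thus close to those of all genes, and what follows describes single carriers, not a property of the families as a whole. At an unadjusted p under 0.05 there were 25 and 20 members, against 56.9% and 49.3% of all genes. The median log2 change of the members was -0.085 in hydrogen rats and -0.015 in control rats, against 0.052 and 0.04 over all genes.

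Called changes of at least 1 log2 unit were fewer. In hydrogen rats 4 members (9.76%) had one, 2 higher and 2 lower, where 4.51% of all genes did, 3.31% higher and 1.21% lower. In control rats 5 members (12.2%) had one, 3 higher and 2 lower, where 3.17% of all genes did, 2.15% higher and 1.01% lower. Both comparisons called 12 members, and each of these moved in the same direction in both: Slc3a2, Slc6a9, Slc7a1, Slc7a5, Slc7a6, Slc7a7, Slc7a8 and Slc38a10 rose, and Slc6a6, Slc6a13, Slc38a4 and Slc43a1 fell. These 12 are 57.1% of the members called in hydrogen rats and 66.7% of those called in control rats. The remaining calls stood in hydrogen rats alone for 9 members and in control rats alone for 6, and 14 were called in neither. For none of the 41 was the diet change shown to differ between hydrogen and control rats: the interaction test of limma called 0 members, as it called 0% of all genes, with 5 members at an unadjusted p under 0.05 (9.27% of all genes) and a smallest adjusted p of 0.296, for Slc6a17.

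**Figure D1:**
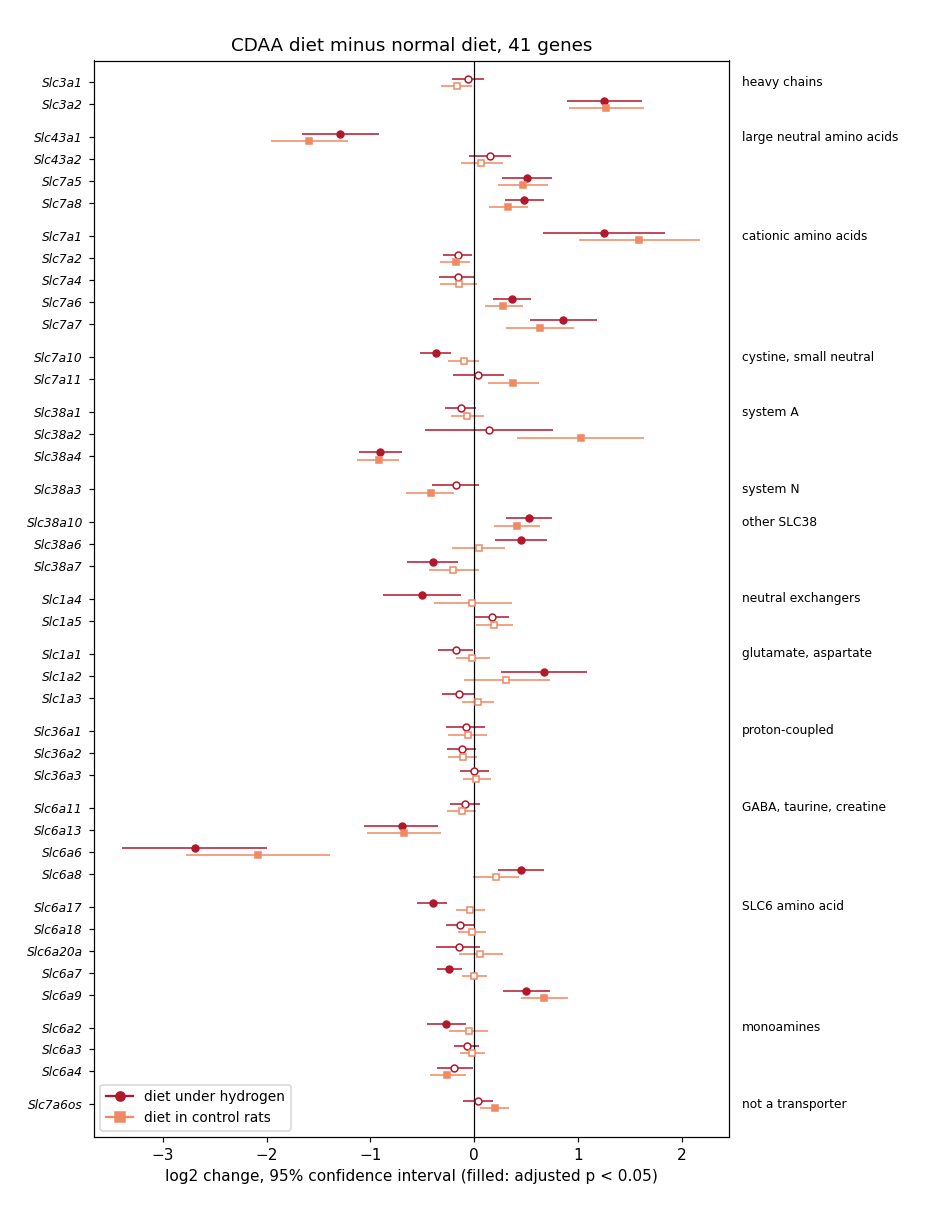
Log2 change on the CDAA diet against the normal diet for the 41 members, ordered by role, in hydrogen rats (dark red circles) and control rats (orange squares), with 95% confidence intervals and filled symbols where the adjusted p was under 0.05. Slc6a6 lies farthest to the left in both, at -2.69 and -2.08, and Slc7a1 farthest to the right in control rats, at 1.59.

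The heavy chain Slc3a2, also known as CD98, rose on the CDAA diet in both settings. Its log2 signals were 9.13, 9.07, 9.66 and 9.47 in hydrogen CDAA rats, against 8.00, 8.09, 8.07 and 8.16 in hydrogen normal-diet rats. In control rats they were 9.41, 9.34, 9.43 and 9.93 on the CDAA diet, against 8.04, 8.05, 8.11 and 8.82 on the normal diet. Every CDAA array lay above every normal-diet array, and the highest normal-diet value was control normal-diet replicate 4. It rose 2.38-fold in hydrogen rats (log2 1.25 ± 0.172 SE, adjusted p = 3.49e-05) and 2.42-fold in control rats (1.27 ± 0.172, adjusted p = 5.1e-05). The array holds RNA of whole liver, where more cells of a type and more RNA per cell cannot be told apart. The second heavy chain, Slc3a1, which serves cystine and dibasic amino acid uptake in kidney and gut, was not called, with log2 changes of -0.06 (95% interval -0.21 to 0.09) and -0.17 (-0.32 to -0.02).

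Of the 6 kept light chains that are known to pair with Slc3a2, 4 rose in hydrogen rats and 5 in control rats. They were Slc7a5, Slc7a6, Slc7a7 and Slc7a8 in both, with Slc7a11 added in control rats. Of all genes, 32.1% and 27.3% rose in these comparisons. The sixth, Slc7a10, a carrier of small neutral amino acids, fell in hydrogen rats to a mean of 3.86 on the CDAA diet, against 4.23 on the normal diet (log2 -0.37 ± 0.0697, adjusted p = 0.000499). Its change in control rats was -0.10 (95% interval -0.25 to 0.05) and the interaction was -0.27 with an adjusted p = 0.455.

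Slc7a5, the exchanger of leucine and other large neutral amino acids known from dividing cells, had signals of 4.65, 5.25, 4.75 and 4.72 in hydrogen CDAA rats and 4.33, 4.34, 4.34 and 4.33 in hydrogen normal-diet rats. In control rats the signals were 4.59, 4.84, 4.69 and 5.06 on the CDAA diet and 4.33, 4.31, 4.32 and 4.35 on the normal diet. All 8 normal-diet arrays lay between 4.31 and 4.35, close to the median of all values, and every CDAA array lay above them. The change was 1.42-fold in hydrogen rats (log2 0.51 ± 0.112, adjusted p = 0.00181) and 1.38-fold in control rats (0.47 ± 0.112, adjusted p = 0.00401). Slc7a8, which carries a wider range of neutral amino acids and is best known from epithelia, averaged 5.29 ± 0.0763 on the CDAA diet and 4.81 ± 0.154 on the normal diet in hydrogen rats (SD, n = 4 each). In control rats it averaged 5.13 ± 0.160 on the CDAA diet and 4.80 ± 0.101 on the normal diet. It rose 1.40-fold (adjusted p = 0.000388) and 1.26-fold (adjusted p = 0.00778), with no overlap between the diets.

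Slc7a7, which exports cationic amino acids in exchange for neutral ones and is expressed by macrophages as well as epithelia, read 6.16, 5.80, 6.14 and 5.41 in hydrogen CDAA rats and 5.08, 5.11, 4.89 and 4.98 in hydrogen normal-diet rats. It read 6.05, 5.45, 6.05 and 5.70 in control CDAA rats and 5.17, 5.07, 5.18 and 5.29 in control normal-diet rats. The diets did not overlap, and it rose 1.82-fold in hydrogen rats (log2 0.86 ± 0.151, adjusted p = 0.000295) and 1.55-fold in control rats (0.63 ± 0.151, adjusted p = 0.00387). Macrophage markers moved with the diet too: 7 of 9 measured ones rose and 0 fell in hydrogen rats, and 5 rose and 1 fell in control rats, where 32.1% and 27.3% of all genes rose. Their summed linear signal was 3445 to 5525 in hydrogen CDAA rats against 2408 to 2641 in hydrogen normal-diet rats, and 3314 to 4214 in control CDAA rats against 2093 to 2970 in control normal-diet rats. All 9 were above the 3.68 line on at least 4 arrays, Gpnmb rose by 3.21 and 2.57 log2 in hydrogen and control rats, and Clec4f, a marker of resident Kupffer cells, fell by 0.61 in control rats with -0.38 in hydrogen rats. Stellate cell markers rose in 9 of 10 and in 7 of 10, with summed signals of 3541 to 4038 against 1980 to 2184 in hydrogen rats and 3051 to 3815 against 1842 to 2721 in control rats, CDAA diet against normal diet. Of 6 bile duct markers above the line, 2 rose in hydrogen rats and 3 in control rats, Epcam and Spp1 in both, while the keratins Krt19, at 0.08 and 0.13 log2, and Krt7, at -0.08 and -0.05, were not called. Bile duct markers had sums of 376 to 443 against 228 to 253 in hydrogen rats and of 302 to 460 against 231 to 251 in control rats, in the same order, with Sox9 below the line on all arrays. Of 5 neutrophil markers on the array, S100a8, Camp, Csf3r and Cxcr2 were below the line on all arrays. The remaining one, S100a9, fell by 0.54 log2 in control rats (adjusted p = 0.00251), with 0.09 in hydrogen rats (adjusted p = 0.562). The part of any of these cells in the changes of Slc7a7 or of any other carrier was not tested.

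Slc7a6, the close relative of Slc7a7, averaged 5.11 ± 0.133 in hydrogen CDAA rats and 4.75 ± 0.147 in hydrogen normal-diet rats, and it rose 1.29-fold (adjusted p = 0.00329). In control rats it averaged 5.03 ± 0.150 on the CDAA diet and 4.74 ± 0.0497 on the normal diet, 1.22-fold higher (adjusted p = 0.0179). That second call was lost without control CDAA replicate 1 (adjusted p = 0.0646), control CDAA replicate 3 (0.0531) or control normal-diet replicate 2 (0.0505).

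**Figure D2:**
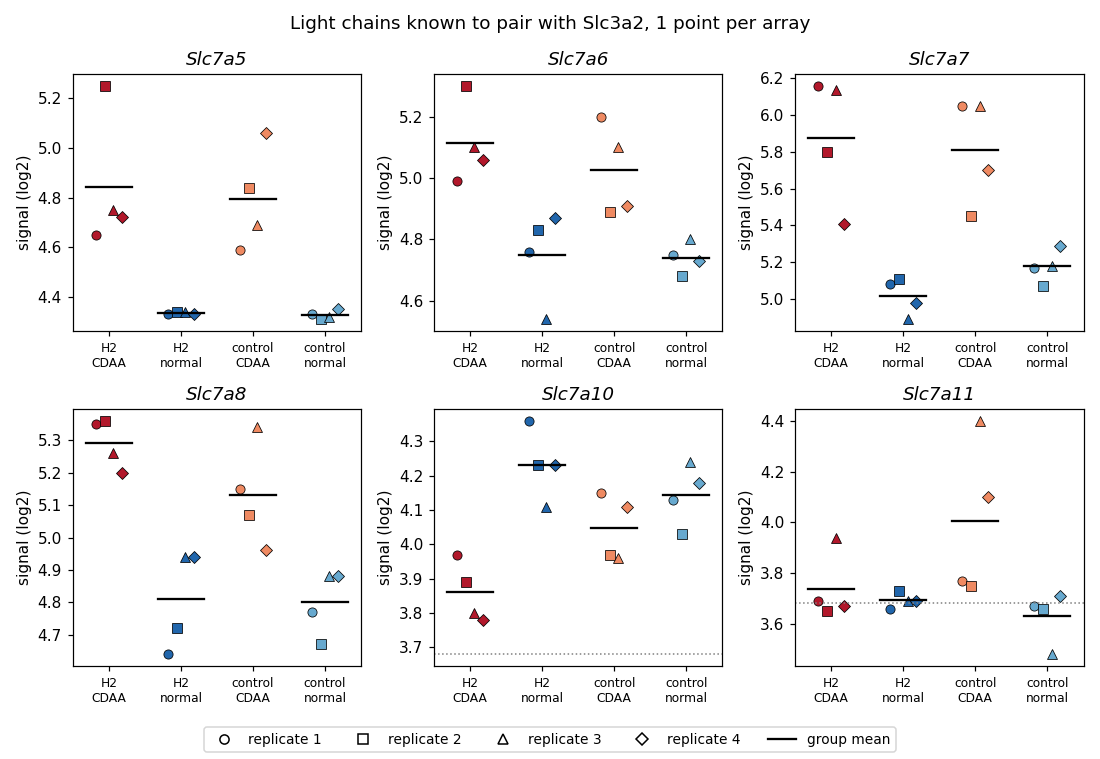
Log2 signal on each array of the 6 light chains known to pair with Slc3a2, by group from hydrogen CDAA to control normal diet. Bars are group means, and the 3.68 line is dotted where signals come near it. Slc7a11 stays close to the line, with its highest values, 4.40 and 4.10, on 2 control CDAA arrays.

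The cystine and glutamate exchanger Slc7a11, which feeds glutathione synthesis and is low in normal hepatocytes, stayed near the line of 3.68. Its signals were 3.69, 3.65, 3.94 and 3.67 in hydrogen CDAA rats and 3.66, 3.73, 3.69 and 3.69 in hydrogen normal-diet rats. In control rats they were 3.77, 3.75, 4.40 and 4.10 on the CDAA diet and 3.67, 3.66, 3.48 and 3.71 on the normal diet. The control groups did not overlap, by a margin that rested on CDAA replicates 3 and 4. Slc7a11 rose 1.30-fold in control rats (log2 0.37 ± 0.115, adjusted p = 0.0183), and the call was lost without control CDAA replicate 3 (0.24, adjusted p = 0.0585), control CDAA replicate 4 (adjusted p = 0.0501) or control normal-diet replicate 3 (adjusted p = 0.06). In hydrogen rats its change was 0.04 (95% interval -0.20 to 0.29), and it was -0.02 without hydrogen CDAA replicate 3. The interaction was -0.33 (-0.67 to 0.01, adjusted p = 0.559).

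In the list of glutathione genes, 4 of 11 rose and 2 fell in hydrogen rats, and 3 rose and 1 fell in control rats. These shares, 36.4% higher and 18.2% lower in hydrogen rats and 27.3% and 9.09% in control rats, were close to those of all genes, 32.1% and 17.3%, and 27.3% and 13.3%. Gss, which joins glycine to complete glutathione, rose by 1.03 and 0.95 log2, and Gclc, the catalytic subunit of the enzyme before it, rose by 0.66 and 0.75. Chac2, which breaks glutathione down in the cell, fell by 0.49 and 0.44.

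Among the carriers of cationic amino acids that need no heavy chain, Slc7a1 changed most. Slc7a1 is the widely expressed carrier of arginine, lysine and ornithine, normally low in liver. Its signals were 5.37, 5.83, 6.08 and 5.80 in hydrogen CDAA rats, against 4.49, 4.47, 4.46 and 4.66 in hydrogen normal-diet rats, which did not overlap. In control rats they were 6.33, 5.20, 6.73 and 6.91 on the CDAA diet, against 4.45, 4.53, 4.59 and 5.22 on the normal diet. Here control CDAA replicate 2 lay just under control normal-diet replicate 4, so the groups overlapped by 1 array on each side. Slc7a1 rose 2.38-fold in hydrogen rats (log2 1.25 ± 0.278, adjusted p = 0.00191) and 3.02-fold in control rats (1.59 ± 0.278, adjusted p = 0.000392). A further probe set of Slc7a1 rose by 0.38 (adjusted p = 0.0219) and 0.91 (adjusted p = 5.6e-05) in the same 2 comparisons. The promoter of Slc7a1 is the one printed above with the TGATGNAA letters.

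Slc7a2, the cationic carrier whose liver form takes up arginine at high concentrations, fell in control rats and lay low on all arrays. Its signals were 3.88, 4.02, 4.03 and 4.10 in control CDAA rats and 4.05, 4.36, 4.23 and 4.13 in control normal-diet rats, which overlapped. The change was -0.18 ± 0.0665 (adjusted p = 0.0401), and it was not called without control CDAA replicate 1 (0.129), 2 (0.0596) or 3 (0.0636) or without control normal-diet replicate 2 (0.145) or 3 (0.0911), adjusted p in each case. Nor was it called with the arrays centred on their median (0.0542) or with quantile normalization applied again (0.0724). In hydrogen rats 4.13, 4.08, 4.06 and 4.15 on the CDAA diet lay below 4.22, 4.33, 4.23 and 4.28 on the normal diet, with a change of -0.16 and an adjusted p = 0.0607, or 0.0483 and 0.0395 without control normal-diet replicate 1 or 2. Slc7a4, a relative with no established transport, was not called, with -0.16 and -0.15 in hydrogen and control rats.

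The uniporters of large neutral amino acids in family 43 parted ways. Slc43a1, known from liver and prostate, read 6.71, 6.78, 5.97 and 6.76 in hydrogen CDAA rats, against 7.67, 7.90, 7.77 and 8.04 in hydrogen normal-diet rats. It read 6.28, 6.43, 6.26 and 6.50 in control CDAA rats, against 8.27, 8.20, 7.80 and 7.56 in control normal-diet rats. All 8 CDAA arrays lay below all 8 normal-diet arrays. It fell 2.45-fold in hydrogen rats (log2 -1.29 ± 0.174, adjusted p = 2.91e-05) and 3.01-fold in control rats (-1.59 ± 0.174, adjusted p = 1.01e-05). Slc43a2, its relative, was not called, with log2 changes of 0.15 (95% interval -0.05 to 0.35) and 0.07 (-0.13 to 0.28). Thus of the 4 carriers of large neutral amino acids, the exchangers Slc7a5 and Slc7a8 rose and the uniporter Slc43a1 fell in both comparisons.

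The sodium-driven carriers of family 38 also moved in different directions. Slc38a4, the system A carrier that is largely confined to liver, read 10.74, 10.34, 10.77 and 10.71 in hydrogen CDAA rats, against 11.48, 11.55, 11.57 and 11.59 in hydrogen normal-diet rats. It read 10.70, 10.60, 10.64 and 10.99 in control CDAA rats, against 11.64, 11.77, 11.68 and 11.54 in control normal-diet rats. All 8 CDAA arrays, at 10.34 to 10.99, lay below all 8 normal-diet arrays, at 11.48 to 11.77. It fell 1.88-fold in hydrogen rats (log2 -0.91 ± 0.0966, adjusted p = 3.96e-06) and 1.90-fold in control rats (-0.92 ± 0.0966, adjusted p = 7.86e-06), the smallest adjusted p of any member in both. The 9 hepatocyte markers had sums of 59436 to 60924 in hydrogen CDAA rats and 61084 to 62073 in hydrogen normal-diet rats, and of 60637 to 62916 in control CDAA rats and 61372 to 62072 in control normal-diet rats. In each comparison 1 of them rose and 2 fell. Of all genes, 32.1% rose and 17.3% fell in hydrogen rats, and 27.3% and 13.3% in control rats. Apoa1 rose and Fgb fell in both, while Cps1 fell in hydrogen rats and Hnf4a in control rats. The part of hepatocytes in the Slc38a4 change was not tested.

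Slc38a2, the system A carrier of alanine and glutamine that cultured cells raise when amino acids run short, had widely spread signals in control rats. It read 8.25, 8.23, 8.98 and 9.52 in control CDAA rats, against 7.02, 7.40, 8.00 and 8.46 in control normal-diet rats. It read 8.17, 8.24, 8.09 and 8.07 in hydrogen CDAA rats, against 7.63, 8.21, 8.19 and 7.96 in hydrogen normal-diet rats. The diets overlapped in both settings, in control rats through control normal-diet replicate 4. In control rats it rose 2.03-fold (log2 1.03 ± 0.289, adjusted p = 0.0112), and leaving out single arrays gave 0.77 to 1.27 with adjusted p between 0.00218 and 0.0446. In hydrogen rats the change was 0.14 (95% interval -0.47 to 0.76, adjusted p = 0.702). The interaction of -0.88 had an interval of -1.75 to -0.01, an unadjusted result that did not hold over all probe sets (adjusted p = 0.538). Slc38a1, the third system A carrier, lay near the line and was not called, with -0.13 and -0.07.

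Slc38a3, the system N carrier of glutamine and histidine found in hepatocytes around the central vein, read 10.02, 10.39, 9.94 and 10.37 in control CDAA rats and 10.70, 10.60, 10.53 and 10.58 in control normal-diet rats. It read 10.46, 10.70, 10.15 and 10.50 in hydrogen CDAA rats and 10.59, 10.64, 10.64 and 10.66 in hydrogen normal-diet rats, with overlap. It fell 1.34-fold in control rats (log2 -0.42 ± 0.11, adjusted p = 0.00683), while the change in hydrogen rats was -0.18 (95% interval -0.41 to 0.05, adjusted p = 0.193) and the interaction 0.24 (adjusted p = 0.668). The 9 markers of pericentral hepatocytes had sums of 14160 to 14989 in hydrogen CDAA rats against 15424 to 16472 in hydrogen normal-diet rats, and of 12901 to 13012 in control CDAA rats against 15877 to 17320 in control normal-diet rats. These markers did not move together: 2 rose and 6 fell in hydrogen rats, and 1 rose and 5 fell in control rats. Of all genes, 32.1% rose and 17.3% fell in hydrogen rats, and 27.3% and 13.3% in control rats. The largest falls, in hydrogen and control rats, were 4.00 and 3.31 log2 for Oat and 1.17 and 0.85 for Cyp1a2. Lhpp fell by 0.97 and 0.94, and Rgn by 0.43 and 0.51. Cyp2e1 rose by 0.41 and 0.26 log2 in hydrogen and control rats, and Glul by 0.28 in hydrogen rats. The part of pericentral hepatocytes in the Slc38a3 change was not tested.

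The less studied Slc38a10 averaged 9.06 ± 0.293 in hydrogen CDAA rats and 8.53 ± 0.0693 in hydrogen normal-diet rats, and 9.11 ± 0.0727 in control CDAA rats and 8.70 ± 0.0560 in control normal-diet rats. It rose 1.44-fold (adjusted p = 0.000732) and 1.33-fold (adjusted p = 0.00616). Slc38a6 rose in hydrogen rats to a mean of 5.76 on the CDAA diet, against 5.31 on the normal diet (1.37-fold, adjusted p = 0.00629), with 0.05 in control rats and an interaction of 0.40 (adjusted p = 0.506). Slc38a7, which lets glutamine out of lysosomes, fell in hydrogen rats to 5.65 on the CDAA diet, against 6.06 on the normal diet (1.32-fold, adjusted p = 0.00989), with -0.20 in control rats and an interaction of -0.21 (adjusted p = 0.737).

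Family 1 held glutamate transporters and neutral exchangers with low to moderate signals. Slc1a2, the glutamate transporter of astrocytes and of hepatocytes around the central vein, read 4.94, 5.11, 4.72 and 5.06 in hydrogen CDAA rats and 4.39, 4.16, 4.42 and 4.16 in hydrogen normal-diet rats. It rose there 1.60-fold (log2 0.67 ± 0.194, adjusted p = 0.0103) with no overlap. In control rats it read 4.37, 5.46, 4.43 and 4.55 on the CDAA diet and 4.55, 3.98, 4.51 and 4.51 on the normal diet, with a change of 0.31 (95% interval -0.10 to 0.73, adjusted p = 0.225). Replicate 2 was the extreme of both control groups, high on the CDAA diet and low on the normal diet, and without control CDAA replicate 2 the change was 0.06. The interaction was 0.36 (adjusted p = 0.723). Slc1a1 and Slc1a3, the other kept glutamate transporters, were not called, with -0.18 and -0.15 in hydrogen rats.

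Slc1a4, an exchanger of alanine, serine and cysteine, read 4.52, 4.66, 4.96 and 4.80 in hydrogen CDAA rats and 5.09, 5.39, 5.33 and 5.14 in hydrogen normal-diet rats. It fell there 1.42-fold (log2 -0.50 ± 0.177, adjusted p = 0.03), and the call was lost without hydrogen CDAA replicate 1 (0.0829) or 2 (0.0609) or hydrogen normal-diet replicate 2 (0.0783) or 3 (0.0699), adjusted p in each case. In control rats it read 5.40, 4.54, 5.63 and 5.58 on the CDAA diet and 5.30, 5.30, 5.38 and 5.24 on the normal diet, where 3 CDAA arrays lay above and replicate 2 far below. The change in control rats was -0.02 (95% interval -0.39 to 0.36) and the interaction -0.48 (adjusted p = 0.574). Slc1a5, the glutamine exchanger of dividing cells, read 5.19, 5.34, 5.08 and 5.07 in hydrogen CDAA rats and 5.15, 5.13, 4.83 and 4.89 in hydrogen normal-diet rats, which overlapped. It read 5.25, 5.09, 5.27 and 5.12 in control CDAA rats and 5.09, 4.93, 4.98 and 4.96 in control normal-diet rats. Its changes of 0.17 (adjusted p = 0.103) and 0.19 (adjusted p = 0.0805) were not called. The proton-coupled carriers Slc36a1, Slc36a2 and Slc36a3 were not called in either comparison, with log2 changes from -0.12 to 0.02.

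The largest change of any member was that of Slc6a6, the sodium and chloride coupled taurine transporter, which brings in the amino acid that hepatocytes use to conjugate bile acids and to balance cell volume. Its signals were 5.37, 4.14, 5.51 and 4.90 in hydrogen CDAA rats, against 7.97, 7.41, 7.62 and 7.70 in hydrogen normal-diet rats. In control rats they were 6.59, 5.16, 6.74 and 6.92 on the CDAA diet, against 8.64, 8.19, 8.49 and 8.43 on the normal diet. Every CDAA array lay below every normal-diet array, and replicate 2 was the lowest in each of the 4 groups. It fell 6.48-fold in hydrogen rats (log2 -2.69 ± 0.326, adjusted p = 1.15e-05) and 4.24-fold in control rats (-2.08 ± 0.326, adjusted p = 0.000163).

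Slc6a13, which carries GABA, betaine and taurine into hepatocytes around the portal vein, fell with it. It read 7.69, 7.88, 7.01 and 7.35 in hydrogen CDAA rats against 8.18, 8.24, 8.17 and 8.15 in hydrogen normal-diet rats, and 7.32, 7.80, 6.93 and 7.40 in control CDAA rats against 7.93, 8.05, 8.16 and 8.02 in control normal-diet rats. The CDAA arrays were spread more widely and still lay below all chow arrays. The falls were 1.63-fold (log2 -0.70 ± 0.168, adjusted p = 0.0032) and 1.60-fold (-0.68 ± 0.168, adjusted p = 0.00504). The 11 markers of periportal hepatocytes had sums of 12843 to 16449 in hydrogen CDAA rats against 17638 to 20347 in hydrogen normal-diet rats, and of 13810 to 15403 in control CDAA rats against 17943 to 19673 in control normal-diet rats. These markers did not move together: 3 rose and 7 fell in hydrogen rats, and 3 rose and 6 fell in control rats. Of all genes, 32.1% rose and 17.3% fell in hydrogen rats, and 27.3% and 13.3% in control rats. The 3 that rose were Hsd17b13, Cdh1 and Aldh1b1 in both comparisons. The largest falls, in hydrogen and control rats, were 1.77 and 2.27 log2 for Sds, 1.33 and 1.28 for Gls2 and 1.24 and 1.26 for Hal. The part of periportal hepatocytes in the Slc6a13 change was not tested. The creatine transporter Slc6a8 averaged 5.33 ± 0.183 in hydrogen CDAA rats and 4.88 ± 0.125 in hydrogen normal-diet rats and rose 1.37-fold (adjusted p = 0.0025), with 0.21 (95% interval -0.01 to 0.43) in control rats and an interaction of 0.25 (adjusted p = 0.646). A further kept probe set of Slc6a8, with a mean of 3.62, changed by 0.07 in both and was not called (adjusted p = 0.45 and 0.486), so the call rests on 1 probe set of 2. Slc6a11, a GABA carrier of brain, was not called.

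Genes that make or use taurine and betaine outside the carrier families were examined as a list with 9 measured members. In hydrogen rats 3 rose and 5 fell, and in control rats 2 rose and 5 fell, where 32.1% and 17.3% of all genes rose and fell in hydrogen rats and 27.3% and 13.3% in control rats. The median log2 change of the list was -0.475 in hydrogen rats and -0.508 in control rats. Cdo1, which starts taurine synthesis from cysteine, fell by 0.66 and 0.68 log2, and Baat, which joins taurine or glycine to bile acids, fell by 0.48 and 0.61. Chdh, which makes betaine from choline, fell by 0.68 and 0.72, and Bhmt2, a methyltransferase related to the one that spends betaine, fell by 0.65 and 0.71. Slc5a3, the sodium-driven carrier of myo-inositol, another osmolyte, rose by 0.55 and 0.46.

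In the amino acid branch of family 6, the glycine transporter Slc6a9 rose 1.42-fold in hydrogen rats, with 7.36, 7.21, 6.97 and 7.25 on the CDAA diet against 6.54, 6.76, 6.75 and 6.72 on the normal diet (adjusted p = 0.0012). In control rats it rose 1.59-fold, with 6.96, 7.13, 6.93 and 7.14 on the CDAA diet against 6.17, 6.30, 6.30 and 6.70 on the normal diet (adjusted p = 0.000169). Its 2 further kept probe sets were not called, with 0.05 and -0.06 in hydrogen rats and 0.19 and 0.06 in control rats, so the calls rest on 1 probe set of 3. The mean of the 3 changed by 0.16 in hydrogen rats, which was not called (adjusted p = 0.061). Slc6a17, a carrier of neutral amino acids in synaptic vesicles, fell in hydrogen rats to a mean of 4.96 on the CDAA diet against 5.36 on the normal diet (log2 -0.40 ± 0.068, adjusted p = 0.000212), with -0.04 in control rats and an interaction of -0.36 (adjusted p = 0.296). A further kept probe set of it changed by -0.16 and was not called (adjusted p = 0.0511). Slc6a7, the proline carrier of brain, fell to 3.82 against 4.06 (adjusted p = 0.00314), with 0.00 in control rats and an interaction of -0.24 (adjusted p = 0.409). Slc6a18 and Slc6a20a, known from kidney and gut, were not called.

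Of the monoamine carriers, the noradrenaline transporter Slc6a2 fell in hydrogen rats by 0.27 log2 (adjusted p = 0.0214). Its change was -0.05 in control rats and the interaction was -0.21 (adjusted p = 0.626). The call was lost without hydrogen CDAA replicate 1 (0.0753) or hydrogen normal-diet replicate 4 (0.0782), and with quantile normalization applied again (0.0521). The serotonin transporter Slc6a4 fell in control rats by 0.26 (adjusted p = 0.0224), a call lost without control CDAA replicate 1 (0.0741) or control normal-diet replicate 1 (0.0845) or 2 (0.0618), with -0.19 in hydrogen rats and an interaction of 0.07 (adjusted p = 0.89). The dopamine transporter Slc6a3 was not called. Slc7a6os rose in control rats by 0.20 (adjusted p = 0.026), with 0.04 in hydrogen rats and an interaction of -0.17 (adjusted p = 0.609). Its call was lost without control CDAA replicate 1 (0.0593), 3 (0.085) or 4 (0.0514) or control normal-diet replicate 2 (0.0671). With quantile normalization applied again it was also lost, at a change of 0.1 (adjusted p = 0.213).

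The share of higher and lower calls was not the same at low and high signals. Of the members, 15 had a mean below the median of all values, among them Slc6a2, Slc6a4, Slc6a7, Slc7a2, Slc7a10 and Slc7a11. In hydrogen rats 0 of these 15 rose and 3 fell, and among all 2440 kept genes of so low a mean 10.7% rose and 19.7% fell. In control rats 1 rose and 2 fell, against 7.01% and 8.44% of the low genes. Of the other 26 members, 11 rose and 7 fell in hydrogen rats (42.3% and 26.9%, against 37.9% and 16.7% of genes at such levels), and 10 rose and 5 fell in control rats (38.5% and 19.2%, against 32.8% and 14.6%). The array's 23 antigenomic control sets, which match no rat gene, had median diet differences of -0.035 in hydrogen rats, ranging from -0.31 to 0.05, and -0.007 in control rats, ranging from -0.17 to 0.01. The falls of Slc6a7 and Slc6a2 in hydrogen rats were within the range of these control sets, and that of Slc7a10, -0.37, was outside it.

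**Figure D3:**
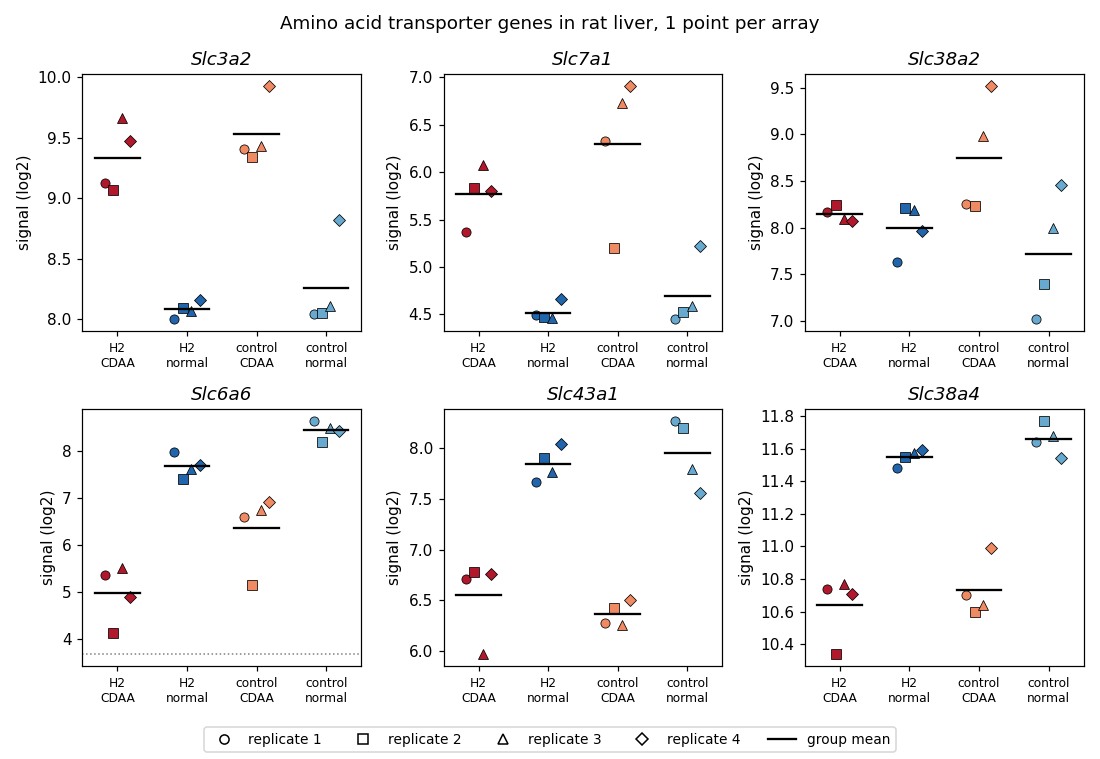
Log2 signal on each array for members with large or well-known changes, in 4 groups of 4 arrays from hydrogen CDAA to control normal diet, with group means as bars. The CDAA arrays of Slc6a6 lie between 4.14 and 6.92 and the normal-diet arrays between 7.41 and 8.64, and those of Slc43a1 between 5.97 and 6.78 and between 7.56 and 8.27.

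Single arrays stood out across members. Over the 18 members called in control rats, control normal-diet replicate 4 was the array nearest to the CDAA group in 11, against 2, 1 and 3 for the other three arrays of its group. Control CDAA replicate 2 was nearest to the normal diet in 10, against 1, 1 and 6. Leaving out any single array gave 14 to 20 calls in control rats and 19 to 23 in hydrogen rats, and moved the fold of no called member by more than 1.5 times.

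Genes known to answer to amino acid shortage were read as a list for comparison, with 29 measured of 37 listed. In hydrogen rats 13 rose and 4 fell on the CDAA diet, and in control rats 21 rose and 0 fell, with median log2 changes of 0.618 and 1.085 against 0.052 and 0.04 over all genes. That was 44.8% higher and 13.8% lower in hydrogen rats and 72.4% and 0% in control rats, where all genes gave 32.1% and 17.3%, and 27.3% and 13.3%. Asns, which makes asparagine, rose by 3.39 log2 in hydrogen rats and 2.87 in control rats, and Phgdh, the first enzyme of serine synthesis, by 4.20 and 3.42. Nupr1, a stress-induced nuclear protein, rose by 2.49 and 3.25, and Atf3, a transcription factor of the same response, by 2.48 and 3.21. Atf4 itself rose by 1.01 in control rats (adjusted p = 0.00143), with -0.08 in hydrogen rats (adjusted p = 0.774) and an interaction of -1.09 (adjusted p = 0.308). Chac1, which degrades glutathione, rose by 1.77 in control rats (adjusted p = 0.0034), with -0.31 in hydrogen rats and an interaction of -2.08 (adjusted p = 0.332), and Fgf21, a secreted hormone of the fasted liver, rose by 4.04 in control rats (adjusted p = 0.0021), with 1.22 in hydrogen rats and an interaction of -2.82 (adjusted p = 0.524). Atf4 and Chac1 were chosen for mention after their values were seen. The 6 members called in control rats and not in hydrogen rats were Slc38a2, Slc7a11 and Slc7a6os, higher, and Slc38a3, Slc6a4 and Slc7a2, lower, with no interaction called, while Slc3a2 and Slc7a1 rose in both.

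Of 26 measured genes that sense amino acids at the lysosome for mTORC1, 10 rose and 4 fell in hydrogen rats and 8 rose and 3 fell in control rats. These shares, 38.5% and 15.4%, and 30.8% and 11.5%, were close to those of all genes, 32.1% and 17.3%, and 27.3% and 13.3%. Sesn3, an inhibitor in that pathway, rose by 1.10 and 1.20 log2, Fnip1, a partner of folliculin, by 0.63 and 0.49, and Rragc, one of the Rag GTPases, by 0.61 and 0.70, while Lamtor4, a subunit of the lysosomal anchor, fell by 0.59 and 0.62 and Fnip2, a relative of Fnip1, fell by 0.59 and 0.93. Of 11 other carriers of amino acids, peptides and carnitine, 5 rose and 3 fell in hydrogen rats and 3 rose and 2 fell in control rats. In hydrogen rats 45.5% were higher and 27.3% lower, and in control rats 27.3% and 18.2%, where all genes gave 32.1% and 17.3%, and 27.3% and 13.3%. Slc22a4, a carrier of ergothioneine, fell by 1.00 and 1.11 log2. Slc16a10, a carrier of aromatic amino acids, fell by 0.77 and 1.10. Slc15a3, a lysosomal peptide carrier of immune cells, rose by 0.99 and 0.74, and Slc22a5, the carnitine transporter, rose by 1.33 in hydrogen rats with 0.24 in control rats (adjusted p = 0.259) and an interaction of 1.09 (adjusted p = 0.179).

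Hydrogen itself changed no member past the threshold on either diet. On the CDAA diet limma called 0 of 41 members against control rats, where 0.376% of all genes were called (43 genes, 0.192% higher and 0.184% lower), and 8 members had an unadjusted p under 0.05, against 12.6% of all genes. On the normal diet it called 0 members, where 0.00875% of all genes were called (1 gene), and 4 members had an unadjusted p under 0.05, against 7.11%. The median change of the members was -0.048 on the CDAA diet and 0.01 on the normal diet, against 0.008 and -0.005 over all genes.

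Slc6a6 had the largest difference and the smallest p of the members on the CDAA diet. Of the values given above, the hydrogen CDAA arrays reached 5.51 at most, control CDAA replicate 2 lay within their range at 5.16, and the other three control CDAA arrays lay between 6.59 and 6.92. The log2 change was -1.37 ± 0.326 (95% interval -2.06 to -0.68, unadjusted p = 0.000668, adjusted p = 0.101). Without control CDAA replicate 2 it was -1.77 (adjusted p = 0.00185), and with the replicate number as a block it was -1.37 with an adjusted p = 0.0218, although the numbers were not taken to pair the samples: the deviations of same-numbered arrays of these 2 groups correlated at -0.08, 0.26, 0.33 and 0.19. On the normal diet the 4 hydrogen arrays, 7.41 to 7.97, lay below the 4 control arrays, 8.19 to 8.64, with a change of -0.76 (95% interval -1.45 to -0.07, adjusted p = 0.638). The interaction for Slc6a6 was -0.61 (-1.59 to 0.37, adjusted p = 0.72).

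Leaving out control CDAA replicate 2 raised the number of called members on the CDAA diet to 3, all lower with hydrogen, where 1.61% of all genes were then called (184 genes). Beside Slc6a6 these were Slc1a4 at -0.80 (adjusted p = 0.000791) and Slc7a1 at -0.89 (adjusted p = 0.0266). With all arrays Slc1a4 stood at -0.55 (95% interval -0.93 to -0.18, adjusted p = 0.233) and Slc7a1 at -0.52 (-1.11 to 0.07, adjusted p = 0.493). Leaving out any other array of those groups called 0 members. Slc38a2 had a change of -0.60 (-1.21 to 0.01, adjusted p = 0.441), with hydrogen CDAA arrays from 8.07 to 8.24 and control CDAA arrays from 8.23 to 9.52.

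The other members at an unadjusted p under 0.05 on the CDAA diet were small in size. Slc38a3 was at 0.27 (adjusted p = 0.343), Slc7a11 at -0.27 (adjusted p = 0.38), Slc6a7 at -0.20 (adjusted p = 0.175), Slc7a10 at -0.19 (adjusted p = 0.299), Slc7a6os at -0.20 (adjusted p = 0.25) and Slc6a17 at -0.15 (adjusted p = 0.392). Of these, Slc6a7 alone had groups that did not overlap, at 3.73 to 3.88 in hydrogen CDAA rats and 3.96 to 4.11 in control CDAA rats. The heavy chain Slc3a2 was at -0.19 (95% interval -0.56 to 0.17, adjusted p = 0.711). On the normal diet Slc6a9 was at 0.32, Slc6a17 at 0.21 and Slc6a3 at 0.13, with adjusted p = 0.503, 0.503 and 0.641.

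**Figure D4:**
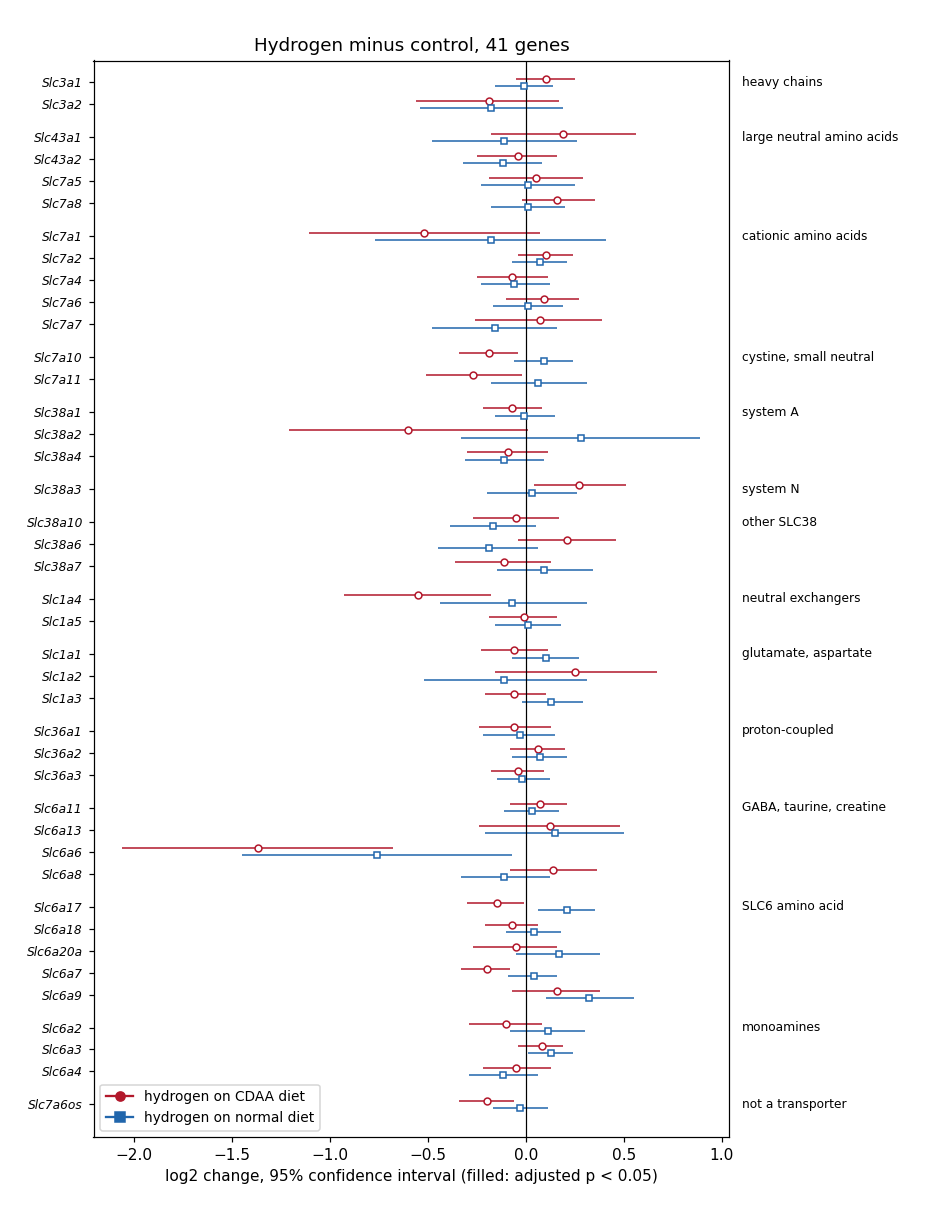
Log2 change with hydrogen against control for the 41 members, ordered by role, on the CDAA diet (red circles) and on the normal diet (blue squares), with 95% confidence intervals. No symbol is filled, since no adjusted p was under 0.05, and Slc6a6 lies farthest to the left in both, at -1.37 and -0.76.

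Among the amino acid response genes, limma called 1 of 29 (3.45%) for hydrogen on the CDAA diet, against 0.376% of all genes. It was Sesn2, a leucine sensor and inhibitor of mTORC1, at -0.70 (adjusted p = 0.0474), and Chac1 stood at -2.03 (adjusted p = 0.0506). At an unadjusted p under 0.05 there were 14 of the 29, against 12.6% of all genes. The median log2 change of the list was -0.323, against 0.008 over all genes. The other lists named here had 0 called genes for hydrogen on either diet. With 4 arrays a group, the number of arrays limits how small a difference can be seen, and the intervals above give the range that remains.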

How the data were processed

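Whole livers of 16 rats were kept in RNAlater, and antisense RNA made from their total RNA by poly(A) priming was hybridised to RG-230 PM strips, according to the labels. The values deposited by the authors are log2 signals, 1 for each probe set and array. RMA and Affymetrix Expression Console stand in the submitters' processing notes (version of either: not given in the sources used here). RMA makes the arrays' distributions nearly equal, which hides a shift of all transcripts. Strip, scan date and hour of sampling were not known, so batches were not checked.

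Of 31139 probe sets, 97 controls and 8408 sets that were not above 3.68 log2 (the 30th percentile) on at least 4 arrays were left out. Names came from the platform annotation, in which 19063 sets had 1 symbol, 572 several and 11407 none. All 16 arrays entered 1 linear model of 4 group means in limma 3.58.1 (R 4.3.3, eBayes), first tested on simulated data, and adjusted p-values are Benjamini-Hochberg over 22634 probe sets. A value after ± is a standard error beside a log2 change and an SD of the 4 arrays beside a group mean. A fold is the antilog of a log2 change. Summed marker signals are sums of linear values.

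The members and lists were chosen with earlier results of these data known. Any member could be named. Values on each array follow a rule: members with a called diet change of at least 1 log2 unit, members called for hydrogen or the interaction, and a set of well-known carriers. Slc1a4, Slc6a9, Slc6a13 and Slc7a7 were added after their values were seen. From the other lists, up to 4 called genes of largest change in each diet comparison are named, and Atf4, Chac1 and Sesn2 outside that rule. Some cell markers, among them Cyp2e1, Glul, Hsd17b13, Aldh1b1, Krt19 and Krt7, are also named outside it. Replicate numbers were taken not to pair the samples, since no comparison had all 4 numbers correlated over 0.1. That rule does not exclude a pairing, so results with the replicate number as a block are given as well. The alternatives tried were the normalization, the filter, the arrays fitted, eBayes and array weights, the probe set rule, a replicate block and leaving out each array. Python 3.11.15 with matplotlib 3.10.9 drew the plots.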

Additional observations from a re-analysis of the deposited data

Results flagged for a closer look

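Of 64 groups of 4 arrays examined for the 16 members described on each array, 9 held an array far from the other three, where chance gives about 1 in 20. Slc3a2 read 8.82 in control normal-diet replicate 4, against 8.04 to 8.11 on the others of that group, and 9.93 in control CDAA replicate 4, against 9.34 to 9.43. Slc1a2 read 5.46 in control CDAA replicate 2, against 4.37 to 4.55, and 3.98 in control normal-diet replicate 2, against 4.51 to 4.55. In hydrogen CDAA rats, Slc7a5 read 5.25 in replicate 2, against 4.65 to 4.75, and Slc38a4 read 10.34 in replicate 2, against 10.71 to 10.77. In the same group Slc43a1 read 5.97 in replicate 3, against 6.71 to 6.78, and Slc7a11 read 3.94 in replicate 3, against 3.65 to 3.69. Slc7a1 read 4.66 in hydrogen normal-diet replicate 4, against 4.46 to 4.49. The cause of these values was not tested.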

How the results depend on the processing

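Calls of members for the diet were 15 to 19 in control rats (18 as reported) and 18 to 22 in hydrogen rats (21) under the other normalizations, filters, fits and probe set rules, and 14 to 20 and 19 to 23 when each array was left out. The low ends of 15 and 18 came from the filter at the median of all values, which tested 26 members in place of 41. The 22 came from the run with no filter, which tested 51. For hydrogen on the CDAA diet the count of 0 became 1 with the replicate block, which was Slc6a6 at an adjusted p = 0.0218, and ranged from 0 to 3 over the arrays left out, with 3 without control CDAA replicate 2. The block left the diet counts at 18 and 21. Fitted on the arrays of the 2 groups alone, the control-rat calls of Slc6a4 (adjusted p = 0.0555), Slc7a11 (0.0571) and Slc7a2 (0.0981) were lost. So was the call of Slc6a2 in hydrogen rats (0.0545). The same fit added calls of Slc1a5 in control rats (0.19, adjusted p = 0.0434) and Slc7a2 in hydrogen rats (-0.16, adjusted p = 0.0467). Same-numbered arrays correlated between -0.13 and 0.33 in their deviations from the group means, over 0.1 in 9 of 24 pairs. For hydrogen against control, 3 of 4 numbers exceeded 0.1 and were their own best match on each diet, with lowest values of -0.08 on the CDAA diet and -0.05 on the normal diet. The count for the interaction and for hydrogen on the normal diet was 0 under every alternative run, and the interaction has no fit on the arrays of 2 groups alone. Over the arrays left out, the uncalled diet change of Slc7a11 in hydrogen rats ranged from -0.02 (without hydrogen CDAA replicate 3) to 0.07, against 0.04 with all arrays, and the cause was not tested. Called changes of at least 1 log2 unit were held by 0.41% and 0.246% of kept genes with a mean below 4.35, in hydrogen and control rats, against 5.63% and 3.96% of genes at or above it.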
